A study of Homo sapiens with 8 samples.

Results

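The 50 genes described here encode the machinery that copies DNA and the enzymes that supply its building blocks, out of 58193 genes to which transcripts could be assigned. They were given as a list of symbols and found by symbol, and all 50 passed the filter on low counts that left 16449 genes for testing. They fall into 11 groups by function: origin licensing (4 genes), the MCM2 to MCM7 helicase (6), helicase activation (6), the sliding clamp and its loader (6), polymerases and primase (9), flap removal and ligation (2), single-strand binding (3), nucleotide supply and uracil removal (6), chromatin assembly and histone mRNA (3), E2F regulators (2), and fork protection with replication-coupled proteolysis (3).

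The cells were HT29, a human line established from a colorectal adenocarcinoma, and each treatment was sequenced as a pair of RNA libraries. One group received 0.1% DMSO, the vehicle. The others received 10 µM of ICG-001, 1.5 µM of CWP232228 or 0.3 µM of YB-0158, with no genetic change and no other agent named for any of the 4 groups. Exposure lasted 48 h, except that replicate 2 of ICG-001 and of CWP232228 is labelled 49 h. ICG-001 binds the coactivator CBP and interferes with its contact with beta-catenin, and CWP232228 is known as an inhibitor of transcription driven by beta-catenin. Each compound was given at 1 dose, so a difference between compounds is one between these treatments as given.

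Before a cell copies its DNA, the origin recognition complex, CDC6 and CDT1 load the MCM2 to MCM7 helicase on origins. CDC45 and the GINS complex turn it into the moving helicase. Polymerase alpha with primase then starts the new strands, and polymerases delta and epsilon extend them on the PCNA clamp. Many of these genes are transcribed at the G1/S transition under E2F factors, and colorectal cancer cells that divide hold them at high levels. Thymidine kinase, thymidylate synthase and ribonucleotide reductase supply deoxynucleotides, and thymidylate synthase is the target of fluoropyrimidine drugs used against this cancer.

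The libraries held between 29071547 and 58489118 estimated reads. Epithelial markers summed to between 11012 and 17142 CPM (reads scaled to library size), while fibroblast markers summed to between 4.35 and 6.09 CPM and endothelial markers to between 0.870 and 1.74 CPM. The leukocyte list summed to between 2483 and 2866 CPM, nearly all of it lysozyme, and its T cell gene CD3E was at 0 in all 8 libraries. The log2 difference between the replicates of a group had an SD of 0.298 for DMSO and of 0.112 to 0.128 for the compounds over 8568 well-measured genes, so counts of called genes are also given below without each DMSO library where this moves them. The labels do not say whether replicates were separate cultures, so p-values measure a spread between libraries that may be technical only. In bulk RNA, fewer cells that express these genes and less of their RNA per cell cannot be told apart.

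With ICG-001 and with YB-0158 most replication genes fell, whereas with CWP232228 27 of the 50 were called in neither direction, 14 fell and 9 rose. Summed over the 50 genes, the level was 4951 and 4903 CPM in the DMSO libraries, 3169 and 3260 CPM with ICG-001, 4495 and 4450 CPM with CWP232228, and 2965 and 3152 CPM with YB-0158. The YB-0158 libraries thus lay just below those of ICG-001, and the CWP232228 libraries lay between these and DMSO. A gene was called when its edgeR quasi-likelihood p, adjusted by Benjamini-Hochberg over all 16449 genes, was under 0.05.

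Against DMSO, 33 of the 50 genes fell and 0 rose with ICG-001, where 24% of all tested genes were called lower and 24.8% higher. The median log2 fold change of the 50 genes was -0.56, that of all tested genes was 0.03, and 10 members were lower by at least 1 on the log2 scale. At an unadjusted p under 0.05, 1 member, RFC3, was higher, and DESeq2 called 32 lower and 0 higher. With YB-0158, 38 fell and 0 rose, against 22.1% of all genes called lower and 21.7% higher, with a median of -0.67 for the members and 0.02 for all genes. At an unadjusted p under 0.05 none was higher with YB-0158 in edgeR, and DESeq2 called 38 lower and 0 higher. With CWP232228, the 14 falls and 9 rises were shares of the members near those of all genes, of which 21.2% were called lower and 21.6% higher, and the medians were -0.01 and 0.04. With offsets for transcript length, CWP232228 gave 9 lower and 3 higher. The plot of fold changes by gene shows the value of every member. The 3 comparisons share the DMSO libraries. Both libraries of a compound lay above both DMSO libraries in 38.8% (ICG-001), 38.1% (CWP232228) and 37.3% (YB-0158) of all tested genes. Both lay below in 35.9%, 34.7% and 35.9% in the same order.

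**Figure D1:**
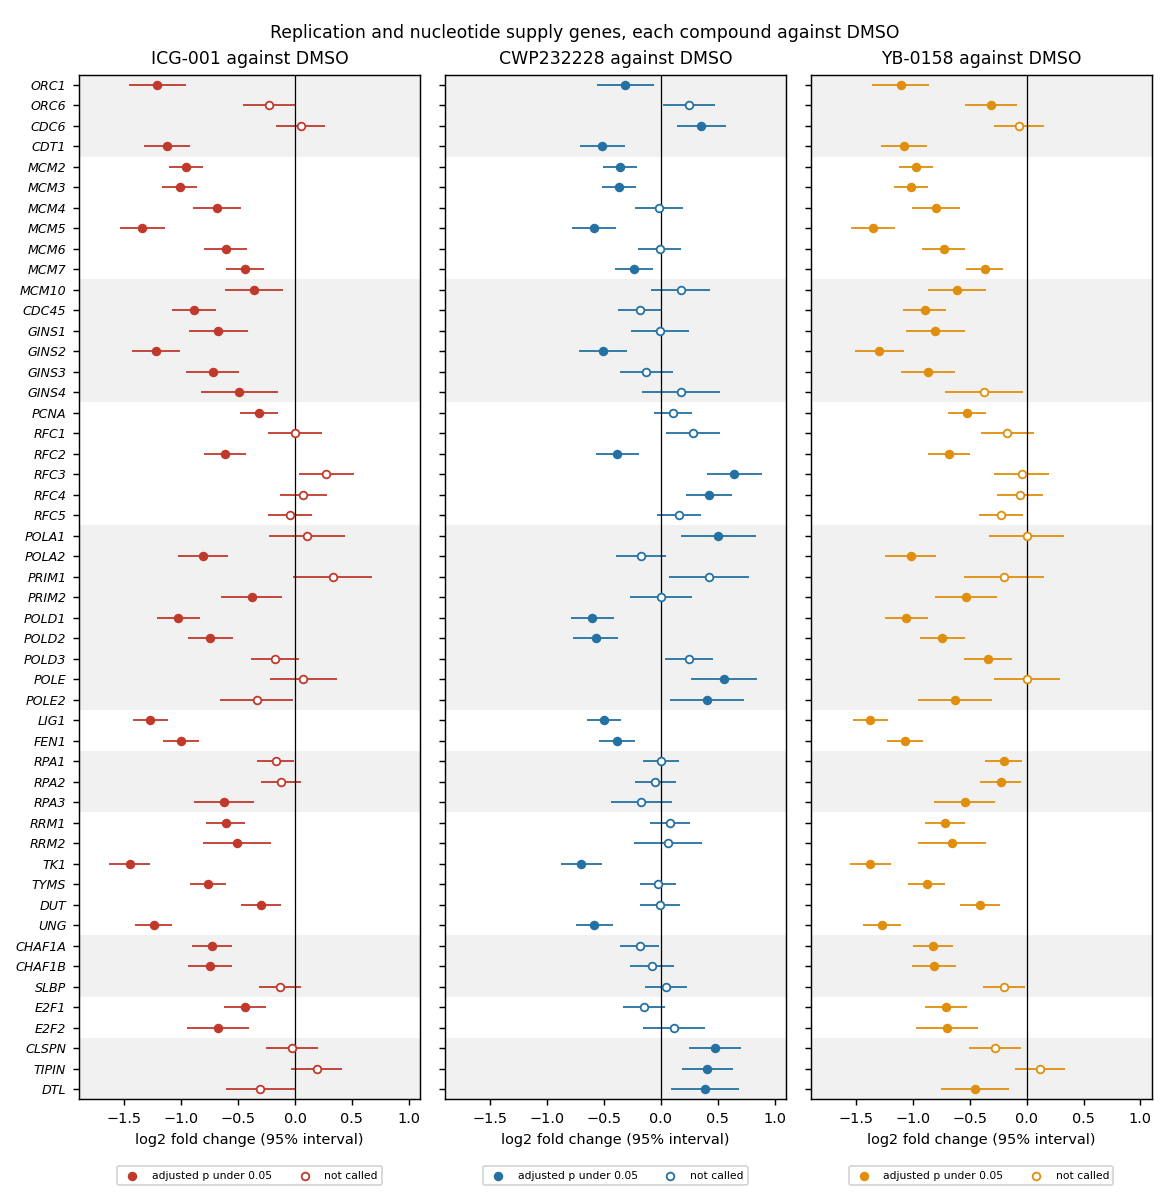
Log2 fold change against DMSO with its 95% interval (x axis) for each of the 50 genes (y axis, grouped by function with alternating shading), in 1 panel per compound. Filled points are genes called at an adjusted p under 0.05, of which there are 33 with ICG-001, 23 with CWP232228 and 38 with YB-0158, and the ICG-001 and YB-0158 panels have 0 filled points right of the line at 0.

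Of the 33 falls with ICG-001, 26 were called in all 13 alternative analyses (other scaling, filters, tools or 1 library left out), and the others were MCM10, GINS4, PCNA, PRIM2, RRM2, DUT and E2F1. Of the 38 falls with YB-0158, 29 were, and the others were ORC6, POLD3, POLE2, PRIM2, RPA1, RPA2, DUT, CHAF1A and DTL. Without 1 ICG-001 library the falls numbered 28 or 31, and without 1 YB-0158 library 31 or 35. Without DMSO replicate 1, ICG-001 gave 30 lower and 3 higher, CWP232228 15 lower and 12 higher, and YB-0158 35 lower and 1 higher. Without DMSO replicate 2, the counts were 35 and 0, 13 and 7, and 41 and 0. Without either CWP232228 library 3 members were called higher with that compound, and RFC4 was the 1 of the 9 rises that was called in every alternative. Among the falls with CWP232228, FEN1, GINS2, MCM3, TK1 and UNG were called in every alternative.

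The 250 bases before the transcription start are printed here for members with contrasting responses, because letters of the E2F type occurred often among them. The letters searched on both strands were TTTCCCGC, TTTGGCGC, TTTCGCGC and TTTGCCGC, which can overlap one another. They occurred in 15 of the 44 members with a RefSeq entry (34.1%) and in 761 of 27305 promoter windows of this length (2.79%). Sequences run 5′ to 3′ on the strand of the gene, are credited to RefSeq on GRCh38.p14, and carry these letters in capitals. MCM6 (chr2:135876444-135876693, minus strand), E2F1 (chr20:33686386-33686635, minus) and LIG1 (chr19:48170345-48170594, minus) hold the letters and fell with ICG-001 and YB-0158. RFC3 (chr13:33817899-33818148, plus) and POLE (chr12:132687343-132687592, minus) hold them and rose with CWP232228 without a call for the other compounds. TK1 (chr17:78187205-78187454, minus) and UNG (chr12:109097347-109097596, plus) hold no exact match to these letters in the window. Both were among the genes with the largest falls.
MCM6: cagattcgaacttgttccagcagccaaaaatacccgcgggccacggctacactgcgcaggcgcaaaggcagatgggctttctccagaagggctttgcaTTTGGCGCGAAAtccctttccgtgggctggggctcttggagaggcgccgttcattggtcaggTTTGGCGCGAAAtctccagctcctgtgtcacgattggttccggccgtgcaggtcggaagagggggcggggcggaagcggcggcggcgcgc
E2F1: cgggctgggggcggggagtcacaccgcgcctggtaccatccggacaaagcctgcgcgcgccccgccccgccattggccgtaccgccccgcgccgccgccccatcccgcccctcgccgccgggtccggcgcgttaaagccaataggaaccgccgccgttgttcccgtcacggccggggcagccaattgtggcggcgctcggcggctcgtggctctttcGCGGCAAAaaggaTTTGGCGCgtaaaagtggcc
LIG1: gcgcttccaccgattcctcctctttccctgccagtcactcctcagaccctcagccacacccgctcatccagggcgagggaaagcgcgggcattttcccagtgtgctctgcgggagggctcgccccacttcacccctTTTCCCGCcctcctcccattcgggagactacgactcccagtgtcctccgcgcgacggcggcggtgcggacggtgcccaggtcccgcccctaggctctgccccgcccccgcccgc
RFC3: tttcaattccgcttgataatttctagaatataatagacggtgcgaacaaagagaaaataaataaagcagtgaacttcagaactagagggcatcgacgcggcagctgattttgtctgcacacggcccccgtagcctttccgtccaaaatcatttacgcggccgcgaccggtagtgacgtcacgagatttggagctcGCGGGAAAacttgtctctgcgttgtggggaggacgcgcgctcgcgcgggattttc
POLE: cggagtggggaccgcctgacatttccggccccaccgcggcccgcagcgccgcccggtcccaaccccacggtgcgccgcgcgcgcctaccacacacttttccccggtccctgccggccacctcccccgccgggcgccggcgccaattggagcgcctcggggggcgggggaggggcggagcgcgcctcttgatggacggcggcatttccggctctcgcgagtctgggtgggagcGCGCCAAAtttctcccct
TK1: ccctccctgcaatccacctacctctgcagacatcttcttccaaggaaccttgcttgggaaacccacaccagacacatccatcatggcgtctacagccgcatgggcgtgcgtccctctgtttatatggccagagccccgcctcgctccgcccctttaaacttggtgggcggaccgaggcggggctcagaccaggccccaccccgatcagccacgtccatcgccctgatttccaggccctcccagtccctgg
UNG: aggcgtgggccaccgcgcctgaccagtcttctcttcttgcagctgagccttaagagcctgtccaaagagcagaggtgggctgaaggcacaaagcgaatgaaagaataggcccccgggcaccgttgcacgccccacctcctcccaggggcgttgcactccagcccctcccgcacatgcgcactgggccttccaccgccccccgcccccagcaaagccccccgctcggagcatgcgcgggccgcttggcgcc

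The change was close for members with and without these letters, with no test made. Only exact matches were counted, and members without them can hold near matches. The UNG window ends in cttggcgcc, and that of CDC6 holds tttggcggg. The comparison therefore does not separate members with and without sites of the E2F type. With ICG-001 the median log2 fold change was -0.61 over the 15 members with them and -0.51 over the 29 without. The medians were -0.03 and 0.00 with CWP232228 and -0.71 and -0.66 with YB-0158. The CCAAT letters occurred in 56.8% of the 44 member windows and 33.0% of all windows, and the GC box letters GGGCGG in 68.2% and 42.3%. The letters TATAAA occurred in 4.55% and 11.1%, and TTTGAA, the core of the cell cycle homology region of late cell cycle genes, in 2.27% and 13.6%. The median GC content was 67.0% in the member windows and 58.0% in all windows. A match is a description of the sequence and no measurement of binding.

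**Figure D2:**
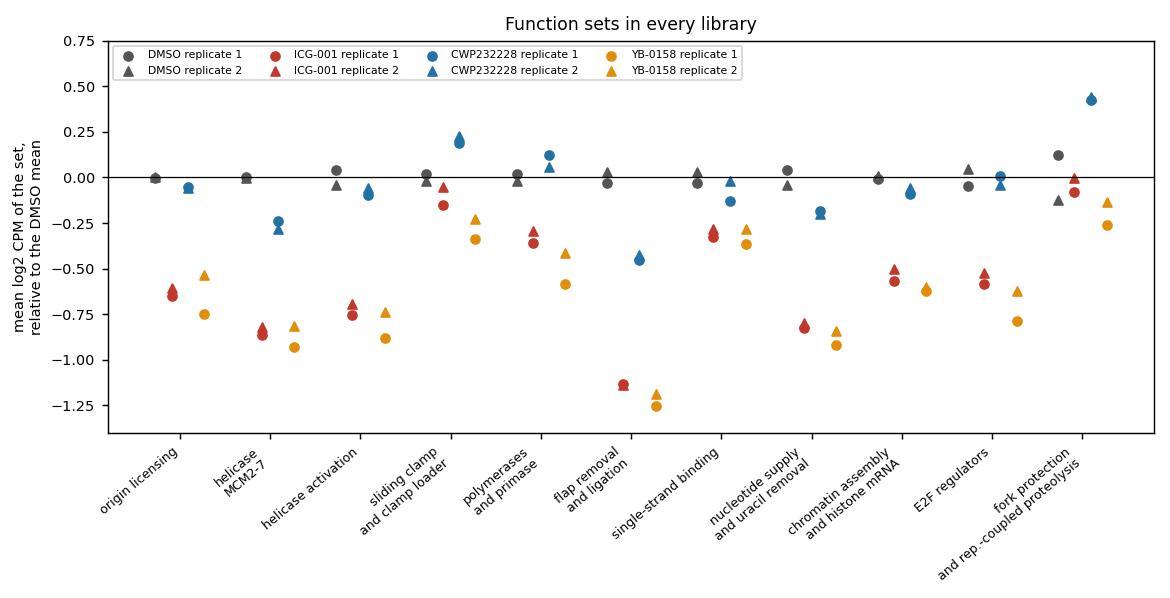
Mean log2 CPM of each of the 11 function groups (x axis) in every library, relative to the mean of the DMSO libraries (y axis), with colour for the treatment and circles and triangles for replicates 1 and 2. Flap removal and ligation shows the deepest fall with ICG-001 and YB-0158, and with CWP232228 the clamp, polymerase and fork protection groups lie above 0.

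Among the licensing genes, ORC1, a subunit of the origin recognition complex made in late G1, and CDT1, which brings the helicase to origins, fell with every compound. CDT1 stood at 77.8 and 85.2 CPM with DMSO, 38.6 and 36.2 with ICG-001, 59.4 and 54.8 with CWP232228, and 37.1 and 40.2 with YB-0158. The ICG-001 and YB-0158 libraries overlapped, with the CWP232228 libraries between them and DMSO. The CDT1 call with CWP232228 did not hold in every alternative, and the authors' deposited table gave -0.29 without a call. In the edgeR fit the log2 fold change of CDT1 was -1.12 (SE 0.09, edgeR adjusted p = 5.3e-05) with ICG-001, -0.51 (SE 0.09, adjusted p = 0.0033) with CWP232228 and -1.08 (SE 0.09, adjusted p = 7.3e-05) with YB-0158. ORC1 changed by -1.21, -0.31 and -1.11 in the same order (SE 0.11 each), although its call with CWP232228 (edgeR adjusted p = 0.047) was lost without any 1 of the 4 libraries compared.

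CDC6, the loader ATPase that works with CDT1, rose with CWP232228 and was not called with ICG-001 or YB-0158. It measured 65.8 and 64.0 CPM with DMSO, 63.9 and 70.4 with ICG-001, 81.1 and 85.1 with CWP232228, and 57.0 and 67.1 with YB-0158. Both CWP232228 libraries were above all other libraries, while those of ICG-001 and YB-0158 spanned the DMSO values. The rise with CWP232228 was 0.36 (SE 0.10, edgeR adjusted p = 0.018) and its call was lost without either CWP232228 library, while the log2 fold changes with ICG-001 (0.05) and YB-0158 (-0.07) were not called. ORC6, the smallest subunit of the origin recognition complex, fell by 0.31 with YB-0158 and was not called with ICG-001 (-0.23) or CWP232228 (0.25).

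All 6 subunits of the MCM helicase fell with ICG-001 and with YB-0158, and MCM2, MCM3, MCM5 and MCM7 fell with CWP232228. MCM5 measured 129 and 136 CPM with DMSO, 52.1 and 52.1 with ICG-001, 92.3 and 83.8 with CWP232228, and 49.0 and 54.7 with YB-0158. This was the deepest change of the 6, with a log2 fold change of -1.34 (SE 0.09, edgeR adjusted p = 2.0e-05) with ICG-001, -0.58 (SE 0.08, adjusted p = 0.0018) with CWP232228 and -1.35 (SE 0.09, adjusted p = 2.4e-05) with YB-0158. MCM2 went from 294 and 284 CPM with DMSO to 148 and 149.5 with ICG-001, 228 and 223 with CWP232228, and 144 and 151 with YB-0158. MCM3 went from 226 and 233 CPM to 111 and 116, 179 and 177, and 110.1 and 116 in the same order. For both genes the CWP232228 libraries lay between DMSO and the other compounds without overlap. Their log2 fold changes with CWP232228 were -0.36 and -0.37 (SE 0.06 and 0.07), and with ICG-001 and YB-0158 they lay between -0.96 and -1.02. With CWP232228 the MCM3 call held in every alternative, and those of MCM2 and MCM5 did not.

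MCM4 and MCM6 fell with ICG-001 and YB-0158 and were not called with CWP232228. MCM4 measured 263 and 228 CPM with DMSO, 148 and 157 with ICG-001, 245 and 241 with CWP232228, and 132 and 151 with YB-0158. MCM6 measured 138 and 134 CPM with DMSO, 85.1 and 92.9 with ICG-001, 135 and 135 with CWP232228, and 76.9 and 87.1 with YB-0158. The CWP232228 libraries of both genes were inside the DMSO range, with log2 fold changes of -0.02 (SE 0.09) and -0.01 (SE 0.08). On the scale of TPM, which corrects for the length of the transcripts, they lay below both DMSO libraries, at 174 and 186 against 195 and 323 TPM for MCM4 and at 50.4 and 55.5 against 59.8 and 56.7 TPM for MCM6. With transcript length offsets the log2 fold changes were -0.64 and -0.23, and in the authors' deposited table they were -0.47 and -0.23, none of them called. With offsets for GC content and length MCM6 was called, at -0.36. MCM7 changed least of the 6 with ICG-001 and YB-0158. It went from 443 and 490.2 CPM with DMSO to 345 and 342 with ICG-001, 405 and 387 with CWP232228, and 362 and 359.5 with YB-0158, and no compound library reached the DMSO range. Its log2 fold changes were -0.44, -0.24 and -0.37 (SE 0.07 each), the CWP232228 call being lost without either CWP232228 library.

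On the TPM scale, on which genes of different length can be compared, MCM4 and MCM7 were the most abundant of the 6 in DMSO. MCM7 held 25.3% and 22.6% of the summed TPM of the 6 genes with DMSO, 36.6% and 35.0% with ICG-001, 27.7% and 27.3% with CWP232228, and 38.8% and 32.6% with YB-0158. All 6 compound libraries lay above the DMSO libraries in this share. MCM4 varied between the DMSO libraries on this scale, at 26.9% and 40.5%. MCM5 held 11.0% and 7.63% with DMSO, 6.08% and 7.60% with ICG-001, 9.31% and 8.26% with CWP232228, and 6.31% and 6.18% with YB-0158. The 6 proteins work in a ring with 1 copy of each.

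**Figure D3:**
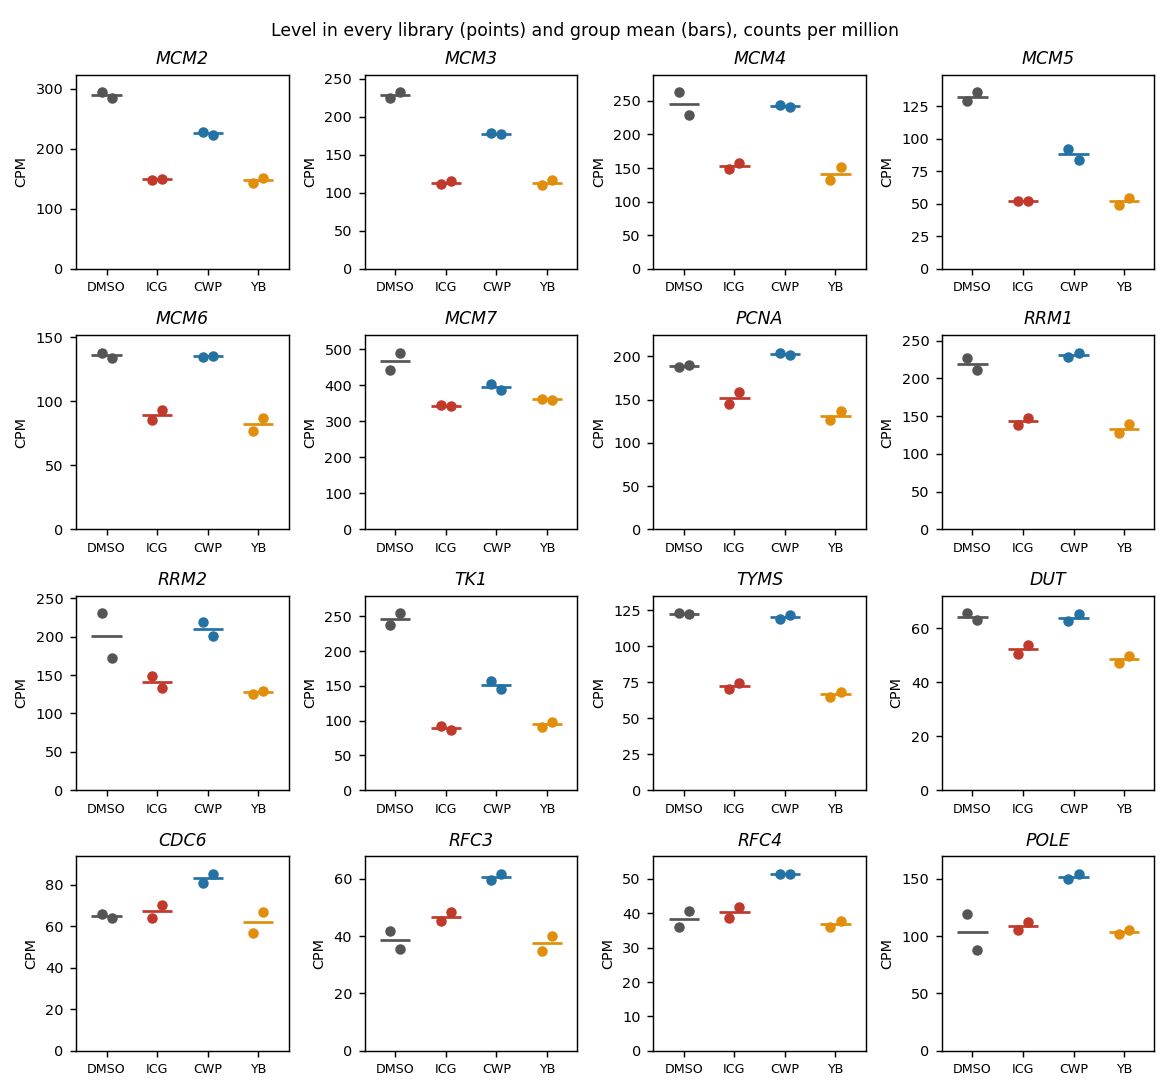
Level in CPM (y axis, from 0) of 16 members in every library (points) with the mean of the 2 libraries of each treatment (bars). The first 3 rows hold genes in which ICG-001 and YB-0158 lie below DMSO, and the last row holds CDC6, RFC3, RFC4 and POLE, in which CWP232228 lies above all other libraries.

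Of the genes that activate the helicase, all 6 fell with ICG-001, 5 fell with YB-0158 and GINS2 alone fell with CWP232228. GINS2, a subunit of the GINS complex, measured 44.6 and 48.2 CPM with DMSO, 19.8 and 20.01 with ICG-001, 32.2 and 33.2 with CWP232228, and 17.8 and 20.1 with YB-0158. The groups were separated except for ICG-001 and YB-0158, which overlapped. The log2 fold changes were -1.22, -0.51 and -1.29 (SE 0.09 each, edgeR adjusted p = 4.4e-05, 0.0040 and 4.0e-05). CDC45, the partner of GINS in the active helicase, fell by 0.89 with ICG-001 and by 0.90 with YB-0158, and was not called with CWP232228 (-0.18). GINS1 and GINS3 fell by between 0.67 and 0.87 with those same compounds, and with CWP232228 their log2 fold changes were -0.01 and -0.13. MCM10, which binds the activated helicase, fell by 0.36 with ICG-001 and by 0.61 with YB-0158 and stood at 0.17 with CWP232228 without a call. GINS4, the least abundant of the 6 at 8.83 and 8.06 CPM with DMSO, fell by 0.49 with ICG-001 and was not called with YB-0158 (-0.38).

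Of the clamp and its loader, PCNA and RFC2 fell with ICG-001 and YB-0158. PCNA, the ring that holds polymerases on DNA, measured 188 and 190.0 CPM with DMSO, 145 and 159 with ICG-001, 204 and 202 with CWP232228, and 126 and 137 with YB-0158. ICG-001 and YB-0158 libraries were below DMSO and those of CWP232228 above it. The falls were -0.31 (SE 0.07, edgeR adjusted p = 0.0078) with ICG-001 and -0.52 (SE 0.07, adjusted p = 0.00083) with YB-0158, and the log2 fold change of 0.10 with CWP232228 was not called.

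Within the clamp loader RFC2 fell with all 3 compounds, while RFC3 and RFC4 rose with CWP232228. RFC2 measured 69.6 and 77.5 CPM with DMSO, 46.2 and 49.7 with ICG-001, 56.8 and 56.1 with CWP232228, and 45.6 and 46.2 with YB-0158, with log2 fold changes of -0.62, -0.38 and -0.68 (SE 0.08 each), the CWP232228 call being lost without CWP232228 replicate 2. RFC3 measured 41.7 and 35.7 CPM with DMSO, 45.3 and 48.5 with ICG-001, 59.5 and 61.7 with CWP232228, and 34.9 and 40.1 with YB-0158. RFC4 measured 36.0 and 40.6, 38.7 and 41.9, 51.4 and 51.4, and 35.9 and 37.8 CPM in the same order. In both genes the CWP232228 libraries were the highest, and those of YB-0158 overlapped DMSO. The rises with CWP232228 were 0.65 (SE 0.11, edgeR adjusted p = 0.0028) for RFC3 and 0.42 (SE 0.09, adjusted p = 0.0071) for RFC4. RFC1, the large subunit, and RFC5 were called with none of the compounds, with log2 fold changes between -0.23 and 0.29.

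POLD1 and POLD2, the catalytic and the second subunit of polymerase delta, fell with all compounds, whereas POLE, the catalytic subunit of polymerase epsilon, rose with CWP232228. POLD1 measured 126 and 134 CPM with DMSO, 66.8 and 61.0 with ICG-001, 90.2 and 81.3 with CWP232228, and 63.0 and 62.1 with YB-0158. Every compound library was below both DMSO libraries, and the log2 fold changes were -1.03, -0.60 and -1.06 (SE 0.08 each, edgeR adjusted p = 5.8e-05, 0.0016 and 5.8e-05). With offsets for GC content and length the value for CWP232228 was 0.035. POLD2 fell by 0.74 with ICG-001, by 0.57 with CWP232228 and by 0.74 with YB-0158 (SE 0.09 each). POLD3, an accessory subunit, fell by 0.34 with YB-0158 and was not called with ICG-001 (-0.18) or CWP232228 (0.25).

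POLE measured 119 and 87.8 CPM with DMSO, 105 and 113 with ICG-001, 149.9 and 154 with CWP232228, and 102 and 105 with YB-0158. The DMSO replicates differed widely and spanned both ICG-001 and YB-0158, and the CWP232228 libraries were above them all. The rise with CWP232228 was 0.56 (SE 0.13, edgeR adjusted p = 0.010), a call that was lost without either CWP232228 library. POLA1, the catalytic subunit of polymerase alpha, measured 28.2 and 21.2 CPM with DMSO, 25.2 and 27.8 with ICG-001, 36.6 and 33.5 with CWP232228, and 22.7 and 26.7 with YB-0158. It rose by 0.51 (SE 0.15, edgeR adjusted p = 0.024) with CWP232228, a call lost without DMSO replicate 2 or either CWP232228 library. POLE2, the second subunit of polymerase epsilon, measured 8.34 and 9.26 CPM with DMSO, 6.90 and 7.03 with ICG-001, 11.4 and 11.9 with CWP232228, and 4.96 and 6.45 with YB-0158. It rose with CWP232228 by 0.41 (SE 0.14, edgeR adjusted p = 0.046, lost without any 1 of the 4 libraries) and fell with YB-0158 by 0.63 (SE 0.14, adjusted p = 0.0080).

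POLA2, the regulatory subunit of polymerase alpha, fell by 0.81 with ICG-001 and by 1.02 with YB-0158 and was not called with CWP232228 (-0.17). Of the primase subunits, which lay the RNA primers, PRIM2 fell by 0.38 with ICG-001 and by 0.53 with YB-0158, with 0.00 for CWP232228. PRIM1 was called with none of the compounds, at 0.33, 0.42 and -0.20 with a wide SE of 0.15.

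LIG1 and FEN1, which join and trim the fragments of the lagging strand, fell with every compound. LIG1 measured 139 and 141 CPM with DMSO, 58.0 and 57.7 with ICG-001, 97.9 and 100.2 with CWP232228, and 52.8 and 55.2 with YB-0158. In CPM the replicates of each group were close together and no 2 groups overlapped. In TPM the ICG-001 libraries, at 27.1 and 35.2, overlapped those of YB-0158, at 24.4 and 29.2. The log2 fold changes of LIG1 were -1.27 (SE 0.07, edgeR adjusted p = 1.0e-05), -0.50 (SE 0.07, adjusted p = 0.0015) and -1.37 (SE 0.07, adjusted p = 7.2e-06). The LIG1 call with CWP232228 did not hold in every alternative, and the authors' deposited table gave -0.33 without a call. FEN1 fell by 1.00, 0.38 and 1.07 (SE 0.07 each).

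Of the 3 subunits of RPA, the protein that coats single-stranded DNA, RPA3 fell with ICG-001 and all 3 fell with YB-0158. RPA3, its smallest subunit, measured 26.3 and 29.8 CPM with DMSO, 17.6 and 18.8 with ICG-001, 22.5 and 27.3 with CWP232228, and 18.8 and 19.6 with YB-0158, the CWP232228 libraries overlapping DMSO. It fell by 0.62 with ICG-001 and by 0.55 with YB-0158 (SE 0.12 each, edgeR adjusted p = 0.0029 and 0.0062). RPA1 and RPA2 fell with YB-0158 by 0.20 and 0.23, close to the threshold (edgeR adjusted p = 0.044 and 0.043), and were not called with the other compounds, where their log2 fold changes lay between -0.17 and 0.00.

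All 6 genes of nucleotide supply and uracil removal fell with ICG-001 and with YB-0158, and with CWP232228 only TK1 and UNG fell. TK1 (chr17:78174075-78187233 on GRCh38), the kinase that salvages thymidine, showed the largest fall of the 50 genes with ICG-001. It measured 237 and 254 CPM with DMSO, 92.1 and 87.1 with ICG-001, 157 and 146 with CWP232228, and 90.8 and 98.4 with YB-0158. The ICG-001 and YB-0158 libraries overlapped, and those of CWP232228 lay between them and DMSO. The log2 fold changes were -1.45 (SE 0.08, edgeR adjusted p = 1.2e-05), -0.70 (SE 0.08, adjusted p = 0.00085) and -1.38 (SE 0.08, adjusted p = 1.6e-05). UNG, the glycosylase that removes uracil from DNA, measured 148 and 147 CPM with DMSO, 59.7 and 65.1 with ICG-001, 98.1 and 98.9 with CWP232228, and 60.4 and 61.9 with YB-0158. It fell by 1.24, 0.58 and 1.27 (SE 0.07 each).

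The genes of new deoxynucleotide synthesis were not called with CWP232228. TYMS, thymidylate synthase, measured 123 and 122 CPM with DMSO, 69.9 and 74.2 with ICG-001, 119 and 122 with CWP232228, and 64.9 and 68.3 with YB-0158. RRM1, the large subunit of ribonucleotide reductase, measured 227 and 210.4 CPM, 138 and 148, 228 and 234, and 127 and 139 in the same order. In both genes ICG-001 and YB-0158 stood well below the DMSO and CWP232228 libraries. TYMS fell by 0.77 (SE 0.07, edgeR adjusted p = 9.7e-05) with ICG-001 and by 0.88 (SE 0.07, adjusted p = 6.3e-05) with YB-0158, with -0.03 (SE 0.07) for CWP232228. RRM1 fell by 0.61 (SE 0.08, edgeR adjusted p = 0.00042) and by 0.72 (SE 0.08, adjusted p = 0.00024), with 0.08 (SE 0.08) for CWP232228.

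RRM2, the small subunit that varies through the cell cycle, measured 230.2 and 172 CPM with DMSO, 149 and 133 with ICG-001, 219.7 and 201 with CWP232228, and 126 and 129 with YB-0158. Its DMSO replicates spanned both CWP232228 libraries, and it fell by 0.51 (SE 0.13, edgeR adjusted p = 0.013) with ICG-001 and by 0.66 (SE 0.13, adjusted p = 0.0049) with YB-0158. DUT, which breaks down dUTP, measured 65.4 and 63.0 CPM with DMSO, 50.5 and 53.7 with ICG-001, 62.5 and 65.3 with CWP232228, and 47.0 and 49.7 with YB-0158. It fell by 0.30 and 0.41 with ICG-001 and YB-0158 (SE 0.08 each).

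CHAF1A and CHAF1B, subunits of the factor that places histones on new DNA, fell together. CHAF1A measured 48.8 and 52.0 CPM with DMSO, 29.8 and 30.8 with ICG-001, 44.5 and 44.0 with CWP232228, and 28.6 and 28.4 with YB-0158. All compound libraries were below DMSO, with falls of 0.73 and 0.82 (SE 0.08 each, edgeR adjusted p = 0.00019 and 0.00014) for ICG-001 and YB-0158, and -0.19 without a call for CWP232228. CHAF1B fell by 0.75 and 0.82 with ICG-001 and YB-0158 and stood at -0.08 with CWP232228. SLBP, which binds the stem-loop of histone mRNA, was called with none of them and lay between -0.20 and 0.05.

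The listed activator genes E2F1 and E2F2 fell with ICG-001 and YB-0158. E2F1 measured 74.8 and 80.1 CPM with DMSO, 57.4 and 56.8 with ICG-001, 72.6 and 67.3 with CWP232228, and 45.3 and 49.6 with YB-0158. E2F2 measured 9.35 and 9.90, 5.75 and 6.32, 10.4 and 10.5, and 5.52 and 6.35 CPM in the same order. The CWP232228 libraries were a little below DMSO for E2F1 and above it for E2F2. E2F1 fell by 0.44 (SE 0.08, edgeR adjusted p = 0.0028) with ICG-001 and by 0.71 (SE 0.08, adjusted p = 0.00035) with YB-0158, and E2F2 by 0.67 and 0.70 (SE 0.12 each). Neither was called with CWP232228 (-0.15 and 0.12).

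The 3 genes of fork protection and replication-coupled proteolysis were called higher with CWP232228 in the edgeR fit, and none was called with ICG-001. CLSPN, the mediator of the checkpoint kinase CHK1 at forks, measured 39.3 and 34.0 CPM with DMSO, 34.2 and 37.9 with ICG-001, 51.2 and 51.1 with CWP232228, and 28.9 and 31.5 with YB-0158. TIPIN, a subunit of the fork protection complex, measured 13.9 and 13.1, 14.9 and 16.0, 18.1 and 17.8, and 14.0 and 15.3 CPM in the same order. DTL, the substrate receptor that targets CDT1 for destruction, measured 43.3 and 32.2, 30.7 and 30.4, 48.3 and 50.7, and 26.3 and 28.8 CPM. In all 3 genes the CWP232228 libraries were the highest of the 8, and the DMSO replicates of DTL lay far apart. Of all tested genes, 38.1% had both CWP232228 libraries above both DMSO libraries. The rises were 0.48 (SE 0.10, edgeR adjusted p = 0.0069) for CLSPN, 0.41 (SE 0.10, adjusted p = 0.012) for TIPIN and 0.39 (SE 0.13, adjusted p = 0.041) for DTL. Without CWP232228 replicate 2 none of the 3 was called, without replicate 1 CLSPN alone was, and DTL was also lost without DMSO replicate 2. In the authors' deposited table the values with CWP232228 were 0.56 for CLSPN, which was called, and 0.21 for TIPIN and 0.17 for DTL, which were not. With offsets for GC content and length TIPIN alone of the 3 was called, and DTL was at -0.016. DTL fell with YB-0158 by 0.45 (SE 0.13, edgeR adjusted p = 0.023).

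Compared directly, CWP232228 held replication genes above both other compounds, and none of the 50 genes was called between YB-0158 and ICG-001. Of the 3 pairs of treatments, CWP232228 against ICG-001 gave 31 of 50 genes higher and 0 lower, where 6.82% of all tested genes were called (3.65% higher and 3.17% lower). The median log2 difference was 0.54 for the members and 0.01 for all genes, and the libraries did not overlap in 49 members, against 29.5% of all genes not overlapping in this direction. YB-0158 against CWP232228 gave 40 lower and 0 higher, where 7.78% of all genes were called (4.21% lower and 3.56% higher), with medians of -0.63 and -0.01, and all 50 members did not overlap, against 31.4% of all genes. No member was called, nor had an unadjusted p under 0.05, in the other direction of either comparison, and DESeq2 gave 37 higher and 42 lower with 0 the other way. These 2 comparisons share the CWP232228 libraries.

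The difference of CWP232228 over ICG-001 was largest for ORC1 (0.90, SE 0.11, 95% interval 0.65 to 1.15), followed by E2F2 (0.79, SE 0.12, 95% interval 0.52 to 1.06) and LIG1 (0.78, SE 0.07, 95% interval 0.62 to 0.93). TYMS differed by 0.74 (SE 0.07, edgeR adjusted p = 0.0022) and TK1 by 0.76 (SE 0.08, adjusted p = 0.0028), and these were the 2 members called in every alternative. All 6 helicase activators and 5 of the 6 MCM subunits were higher. The exception, MCM7, differed by 0.20 (SE 0.07, 95% interval 0.04 to 0.37), and none of the 3 RPA subunits was called. YB-0158 lay furthest below CWP232228 for POLE2 (-1.04, SE 0.14, 95% interval -1.36 to -0.72), LIG1 (-0.88, SE 0.07, 95% interval -1.03 to -0.72) and TYMS (-0.85, SE 0.07, 95% interval -1.01 to -0.69). FEN1, LIG1, MCM3, RRM1, TYMS and UNG were called in every alternative of that comparison.

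The counts between compounds rest on single libraries more than those against DMSO. For CWP232228 against ICG-001, 3 members were called without ICG-001 replicate 1, 15 without ICG-001 replicate 2, 10 without CWP232228 replicate 1 and 5 without CWP232228 replicate 2. For YB-0158 against CWP232228, 7 were called without YB-0158 replicate 1, 28 without YB-0158 replicate 2, 20 without CWP232228 replicate 1 and 10 without CWP232228 replicate 2. With transcript length offsets 10 members were called higher for CWP232228 against ICG-001 and 16 lower for YB-0158 against CWP232228. The direction was steadier: 48 of 50 members in the former comparison and 50 of 50 in the latter kept theirs in all 11 alternatives.

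For YB-0158 against ICG-001, 0 of 50 members were called by edgeR and 0 by DESeq2, where 0.00608% of all tested genes were called, that is 1 gene. The lowest adjusted p was 0.75, and 5 members, PRIM1, E2F1, RFC3, PCNA and CLSPN, had an unadjusted p under 0.05, each lower with YB-0158. The median difference was -0.10, and 43 members lay below 0. Over all tested genes the median was -0.005 and 51.5% lay below 0. In all 11 alternatives 28 of the 50 members kept their direction. The 95% interval of the difference stayed within 0.5 of 0 on the log2 scale for 46 of the 50 members, and over all of them the bounds ran from -0.87 to 0.45. PRIM1 had the largest difference (-0.53, SE 0.15, 95% interval -0.87 to -0.19). The doses were 0.3 µM and 10 µM, so the values describe these treatments and not the strength of the compounds.

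**Figure D4:**
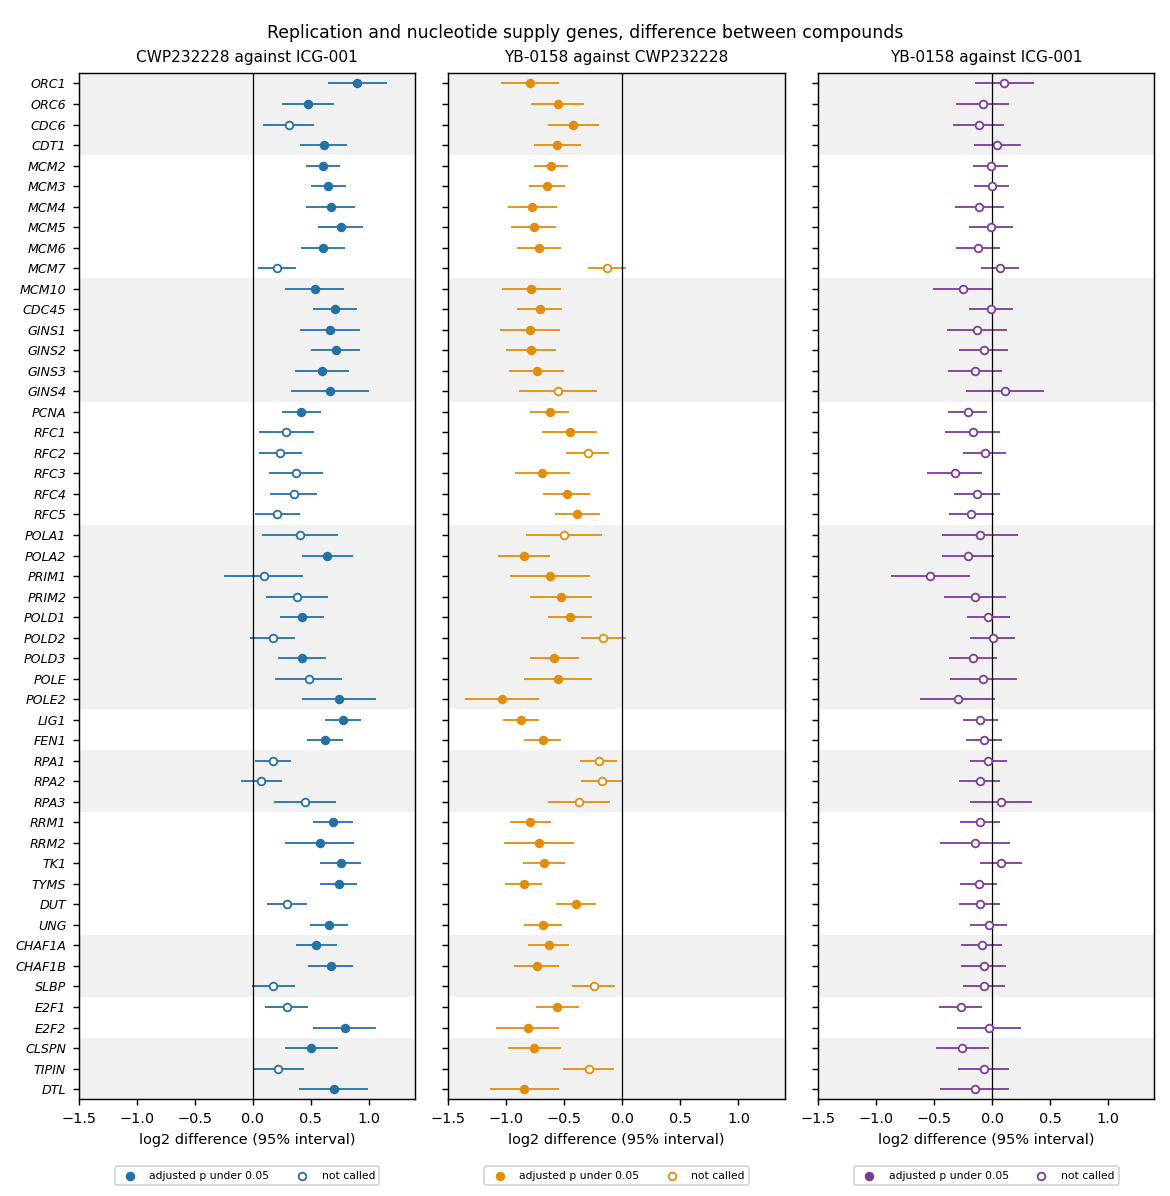
Log2 difference between compounds with its 95% interval (x axis) for each of the 50 genes (y axis, grouped by function), with filled points for an adjusted p under 0.05. CWP232228 lies above ICG-001 with 31 genes called, YB-0158 lies below CWP232228 with 40 called, and YB-0158 against ICG-001 has 0 called and values near 0.

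The log2 fold change of a member, with its sign, went with the base composition of its transcripts. The median GC content was 49.0% for the members and 50.2% for all tested genes. Across the 50 members, Spearman's rho of the log2 fold change with GC content was -0.68 with ICG-001, -0.75 with CWP232228 and -0.62 with YB-0158. Across all 16449 tested genes it was -0.42, -0.57 and -0.38. For YB-0158 against ICG-001 it was 0.61 across the members and 0.25 across all tested genes. For CWP232228 against ICG-001 these values were 0.25 and -0.14, and for YB-0158 against CWP232228 they were 0.02 and 0.27. These are descriptions across genes, which are not independent replicates and share the same libraries. With CWP232228 all 14 falls were among the 21 members at or above the median GC content of all genes, and 8 of the 9 rises were among the 29 members below it. POLE was the exception with a rise at high GC content. With ICG-001, 20 of the 21 and 13 of the 29 fell, and with YB-0158 19 of the 21 and 19 of the 29.

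The log2 difference between replicates also followed GC content, with a rho of -0.59 for DMSO and of 0.55 to 0.78 for the compounds over 8568 genes. With offsets that remove the trend with GC content and length in every library, 39 members were lower with ICG-001 and 45 with YB-0158, with 0 higher for either. With CWP232228 13 were then lower and 5 higher, the latter being RFC3, RFC4, POLE, TIPIN and E2F1. Between compounds the offsets gave 44 higher for CWP232228 against ICG-001 and 46 lower for YB-0158 against CWP232228. For CWP232228 against DMSO, among members called with or without them, the offsets turned the sign of RFC1 and RRM1 to below 0, of POLD1 and E2F1 to above 0, and of POLA1 and DTL, both called higher without them, to -0.12 and -0.016.

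**Figure D5:**
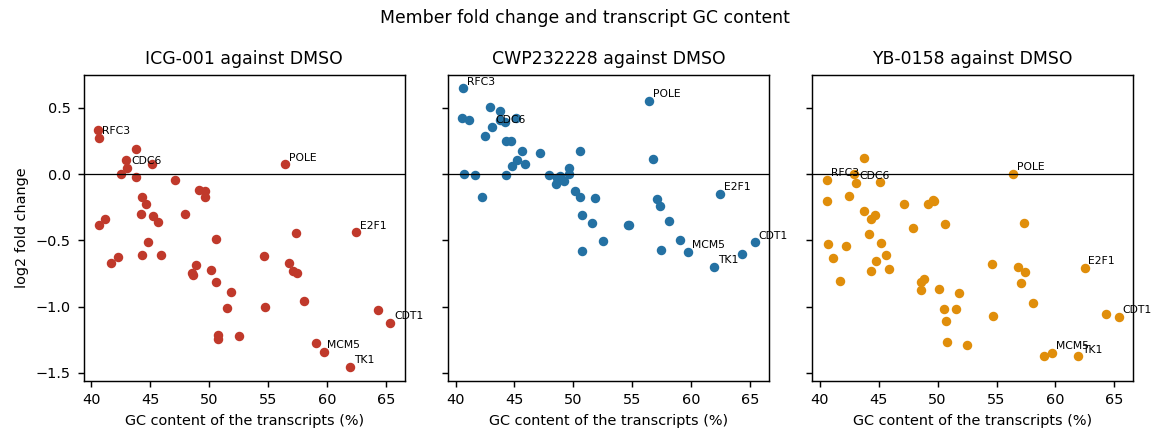
Log2 fold change against DMSO (y axis) and GC content of the transcripts in percent (x axis) of the 50 genes, in 1 panel per compound with some genes named. Values decline with GC content in each panel (rho of -0.68, -0.75 and -0.62), and POLE lies above that trend.

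A list of 50 other genes of replication, nucleotide metabolism, the G1/S transition and chromatin gave the background of the pathway. With ICG-001, 20 of these fell and 6 rose, and with YB-0158 24 fell and 5 rose, where 24% and 22.1% of all tested genes were called lower and 24.8% and 21.7% higher. With CWP232228 11 fell, a share near the 21.2% of all genes called lower, and 19 rose, where 21.6% of all genes were called higher. The genes with the lowest p included SHMT1, the cytosolic enzyme that feeds one-carbon units to thymidylate synthesis, which measured 88.2 and 98.1 CPM with DMSO, 41.7 and 44.3 with ICG-001, 57.3 and 58.5 with CWP232228, and 42.2 and 43.8 with YB-0158. It fell by 1.12, 0.69 and 1.11 (SE 0.08 each). ASF1B, a histone chaperone, fell by 0.91, 0.37 and 1.09 (SE 0.07 each) and RNASEH2A, the catalytic subunit of RNase H2, by 1.00, 0.58 and 1.14 (SE 0.09 each). DTYMK, which phosphorylates dTMP, fell by 0.97, 0.50 and 0.93 (SE 0.08 each). POLD4, the smallest subunit of polymerase delta, fell by 0.85, 1.09 and 0.72 (SE 0.10 each), so that it was the 1 of these 5 with its deepest value with CWP232228.

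Some genes of the wider list rose with all 3 compounds, and these were chosen after their values were seen. RRM2B, the small ribonucleotide reductase subunit used outside S phase and a p53 target, measured 17.0 and 12.2 CPM with DMSO, 23.7 and 26.8 with ICG-001, 21.5 and 23.6 with CWP232228, and 22.0 and 24.8 with YB-0158. It rose by 0.79, 0.63 and 0.68 (SE 0.16 each, edgeR adjusted p = 0.0036, 0.014 and 0.0084), with all 6 compound libraries above DMSO. ORC2, ORC3 and ORC5, subunits of the origin recognition complex whose levels vary little through the cell cycle, also rose with all 3 compounds. The rises were 0.38, 0.49 and 0.29 for ORC2 and 0.45, 0.55 and 0.46 for ORC3. For ORC5 they were 0.59, 0.47 and 0.39 (SE 0.10 to 0.11 for these genes). In TPM, the compound libraries of RRM2B, ORC2 and ORC3 all lay above both DMSO libraries. Those of ORC5 ran from 30.5 to 36.8 TPM, and DMSO replicate 1 lay within that range at 34.5 TPM. The DMSO replicates of ORC2 lay far apart, at 40.3 and 20.9 TPM, as did those of CWP232228 for RRM2B, at 8.49 and 30.6 TPM. Against CWP232228, ICG-001 was not called different for any of these 4 genes, and YB-0158 was not either.

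Few members changed in the make-up of their transcripts. Of 47 members with at least 2 testable transcripts, 1 was called with ICG-001, 3 with CWP232228 and 1 with YB-0158 (edgeR diffSpliceDGE with Simes and Benjamini-Hochberg adjustment), where 3.88%, 3.58% and 3.2% of 11611 genes were called. RFC5, the clamp loader subunit whose total level was not called, was called with all 3. Its protein-coding transcript RFC5-204 held 79.1% and 77.9% of the reads of the gene with DMSO, 55.8% and 53.7% with ICG-001, 57.2% and 65.1% with CWP232228, and 56.2% and 60.3% with YB-0158. Its transcript RFC5-201 held 4.62% and 8.43% with DMSO and between 16.1% and 26.3% in the compound libraries. The adjusted p of RFC5 was 0.0060 (edgeR, ICG-001), 0.017 (CWP232228) and 0.031 (YB-0158). With CWP232228, RRM2-213 went from 66.5% and 60.8% to 43.9% and 52.7% of RRM2 (edgeR adjusted p = 0.028), and CDC45-201 from 42.8% and 28.1% to 67.9% and 59.0% of CDC45 (adjusted p = 0.031). None of these calls held without each library in turn. For RFC5 with ICG-001 the call was lost without ICG-001 replicate 1, and without DMSO replicate 1 or CWP232228 replicate 1 no member was called with CWP232228. Salmon divides reads among transcripts by a model, so these shares are estimates.

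Some levels carry an uncertainty from shared sequence, because the library kit does not mark strand. In the GENCODE annotation 27 members share no exon base with another gene and 9 share over 10%. TYMS shares 39.1% of its exon bases with ENOSF1 on the opposite strand, POLA2 35.1% with a gene on its own strand, MCM2 22.7% with an antisense gene, GINS4 21.2%, TIPIN 21.0%, RRM2 20.2%, PRIM1 14.9%, DUT 14.5% and GINS3 10.9%. Reads of these genes and of their partners may have been divided differently by the model. The authors' deposited table called 29 members lower with ICG-001, 10 lower and 6 higher with CWP232228, and 32 lower with YB-0158. Its rises with CWP232228 were RFC3, RFC4, CLSPN and POLA1, also called in the edgeR fit, and RFC5 and RRM2, not called there. CDC6, POLE, POLE2, TIPIN and DTL, called higher in the edgeR fit, were not called in the deposited table.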

How the data were processed

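RNA of 8 HT29 libraries was prepared with the TruSeq RNA v2 kit and sequenced on an Illumina instrument, per the labels. Salmon 1.3.0, fastp, DESeq2 and the build GRCh38 appear in the submitters' processing notes without a role or order. Per the file headers, the deposited library files hold Salmon's estimated counts and TPM per transcript, and the authors' deposited tables hold a mean normalized signal, log2 fold changes, p-values and FPKM per gene. FPKM entered no result. TPM, summed per gene without further scaling, served to compare genes with each other and, for some genes, to compare libraries of different treatments. No test used TPM. Which transcript release the authors used is not given in the sources used here.

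Transcript counts were matched by identifier to GENCODE release 29 (204677 of 228754 transcripts, 89.5%), summed per gene and rounded. Unmatched transcripts held 1.54% to 1.85% of reads and were left out. The members are 50 listed symbols, and they, the other gene lists and the tests were chosen with earlier results of these data known. Tests used edgeR 4.0.16 (R 4.3.3) with TMM factors, filterByExpr and the robust quasi-likelihood test, in 1 model of 4 groups with 4 residual degrees of freedom, and p-values were adjusted by Benjamini-Hochberg over 16449 genes. An unstated adjusted p comes from this fit. The code was tested on simulated data.

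Groups and replicate numbers come from the titles. Values in every library were given for the member with the lowest p in each function group (ICG-001 and CWP232228 against DMSO), every member called higher against DMSO, MCM2 to MCM7, PCNA and the nucleotide enzymes, with a few more members added. Of the other pathway genes, the 3 with the lowest p per comparison with DMSO were named. Depth gives a floor of 3 counts, which no member came near, and the 2 libraries per group limit the precision. Alternatives were DESeq2 1.42.0 as scaling and as test, no low-count filter, a replicate block, offsets for GC content and length (lowess span 0.3), transcript length offsets, the authors' table, and leaving out each library. Promoter letters were counted in RefSeq windows, of which 44 members had one. Members without a window were GINS4, MCM4, MCM5, POLD3, RPA2 and RPA3.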

Additional observations from a re-analysis of the deposited data

How the results depend on the processing

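Across the alternatives, 43 of 50 members kept their direction in every one for ICG-001 against DMSO, 30 for CWP232228 against DMSO, 45 for YB-0158 against DMSO, 48 for CWP232228 against ICG-001, 50 for YB-0158 against CWP232228 and 28 for YB-0158 against ICG-001. Members called higher with ICG-001 against DMSO numbered 2 with no filter on low counts and 1 with the crossed block below. Members called higher with CWP232228 against DMSO numbered 9 in the result reported, 5 with offsets for GC content and length, 3 with the replicate block added to these offsets, and 3 with transcript length offsets. Transcript length offsets gave 9 lower for CWP232228 against DMSO, 10 higher for CWP232228 against ICG-001 and 16 lower for YB-0158 against CWP232228. With no filter, 1 member was lower for YB-0158 against ICG-001. The causes of these shifts were not tested.

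Leaving out 1 library in turn gave, against DMSO, 28 to 35 lower and 0 to 3 higher with ICG-001, 11 to 15 lower and 3 to 12 higher with CWP232228, and 31 to 41 lower and 0 to 1 higher with YB-0158. It gave 3 to 15 higher for CWP232228 against ICG-001, 7 to 28 lower for YB-0158 against CWP232228 and 0 for YB-0158 against ICG-001. Where a group was left with 1 library, that library was assumed to vary like the other groups. For transcript usage these ranges were 0 to 2 with ICG-001, 0 to 2 with CWP232228 and 0 to 1 with YB-0158, and a filter of 10 counts in 2 libraries gave 2 with ICG-001.

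The labels do not say that replicate numbers pair the libraries. The replicate differences correlated at -0.35, -0.37 and -0.28 between DMSO and the compounds and at 0.27 to 0.52 among the compounds. With the replicate block, 33 members were lower with ICG-001, 13 lower and 8 higher with CWP232228 and 36 lower with YB-0158, and between compounds 27 were higher for CWP232228 against ICG-001 and 36 lower for YB-0158 against CWP232228. For transcript usage the replicate block gave 2 members with ICG-001, 3 with CWP232228 and 2 with YB-0158. A block with the DMSO numbers crossed, chosen after seeing the data, gave 35 lower with ICG-001, 14 lower and 12 higher with CWP232228 and 41 lower with YB-0158.

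The reversals given here are of members called in the result reported or under the alternative; the other changes of direction, among them TYMS at 0.09, E2F2 at -0.03 and DUT at 0.01 for CWP232228 against DMSO in the authors' deposited table, were of members called in neither. With ICG-001, POLA1 was at -0.49 under the offsets for GC content and length. With the replicate block added to these offsets POLA1 was at -0.49 and CDC6 at -0.17. With CWP232228 the offsets gave -0.21 for RFC1, 0.035 for POLD1, 0.22 for E2F1, -0.12 for POLA1, -0.016 for DTL and -0.14 for RRM1, and the offsets with the replicate block gave -0.21 for RFC1, 0.036 for POLD1, 0.22 for E2F1, -0.12 for POLA1 and -0.014 for DTL. With YB-0158, POLE was at 0.00 with all libraries, at -0.21 without DMSO replicate 2 and at 0.24 without DMSO replicate 1. The offsets gave 39 lower with ICG-001, 13 lower with CWP232228, 45 lower with YB-0158, 44 higher for CWP232228 against ICG-001 and 46 lower for YB-0158 against CWP232228.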
